A study of Homo sapiens with 6 samples.

Results

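The genes described here encode the laminins and their basement membrane partners, the glycoproteins of the interstitial matrix, the large chondroitin sulfate proteoglycans with the testicans, and the lysyl oxidases. They were taken by gene symbol from a fixed list of 43 genes, of which 41 had a row in the deposited table of 20668 genes. The libraries came from SH-SY5Y, a human neuroblastoma line that resembles immature sympathetic neurons. There were 3 libraries of cells whose DNAJC12 gene had been knocked out with CRISPR/Cas9 and 3 of wild-type (WT) cells, all labelled as receiving no treatment. DNAJC12 encodes a co-chaperone of the HSP70 system, and the study's stated interest was invasion by these cells. The guide, the number of knockout clones and whether replicates were separate cultures are not given in the sources used here, so the tests see only how far these particular libraries scatter, and that scatter may be technical.

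A basement membrane is a sheet built on a laminin network, each laminin being a trimer of an alpha, a beta and a gamma chain, which nidogens link to collagen IV and to the proteoglycan perlecan. Interstitial glycoproteins such as fibronectin, tenascins and thrombospondins bind integrins and other receptors and set how cells attach and move. Lecticans, the hyaluronan-binding proteoglycans, are a main part of the loose matrix of the nervous system, and lysyl oxidases cross-link collagen and elastin.

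Total counts ran from 19845788 to 21869659 in the knockout libraries and from 19321842 to 20071795 in the WT libraries. Levels are CPM, counts scaled to the library's total after TMM normalization. Before that normalization, 1 count was 0.0457 to 0.0518 CPM. Fold changes are log2 values of knockout over WT with the SE of edgeR's quasi-likelihood fit (n = 3 per genotype), adjusted by the Benjamini-Hochberg method over all 16403 genes tested, and a gene passed at an adjusted p under 0.05. DNAJC12 itself had 5.91, 5.87 and 4.85 CPM in the knockout libraries, against 23.0, 21.4 and 20.0 CPM in the WT libraries, a fall of -1.95 ± 0.13 (edgeR adjusted p = 1.25e-06). All 11 markers of sympathoadrenal neuroblasts had rows in the table, with summed levels of 4300 to 4390 CPM in knockout and 4290 to 4430 CPM in WT libraries. Of 8 Schwann cell and glial markers, SOX10, FOXD3, CDH19 and GFAP had no row, and the other 4 summed to 7.37 to 8.35 CPM in knockout and 7.72 to 9.68 CPM in WT libraries. Of 6 endothelial markers 3 had rows (0.915 to 2.04 CPM in knockout, 1.07 to 1.74 CPM in WT), and of 6 immune cell markers 2 had rows (1.27 to 1.59 CPM in knockout, 1.17 to 2.20 CPM in WT). All 9 fibroblast markers had rows and summed to 397 to 428 CPM in knockout and 475 to 514 CPM in WT libraries. Of these 9 markers, 3 were higher, 3 were lower and 3 did not pass (66.7% called, beside 26.0% of all genes tested). Their part in the results below was not tested, and in bulk RNA fewer cells of a type and less RNA per cell cannot be told apart.

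Matrix genes changed in both directions, and the largest changes were rises of genes with low levels in WT cells. Of the 43 genes, 38 passed the filter on low counts, 3 (LAMA2, LAMC3 and EFEMP1) did not, and 2 (ACAN and POSTN) had no row. The filter asked for 0.501 CPM, before TMM normalization, in 3 libraries, and 33 of the 38 exceeded that level in every library. TNR, THBS1 and LOXL1 met it only through the knockout libraries, and SPOCK3 only through the WT libraries, where each was high. Among the 38, there were 13 that rose and 11 that fell, and the remaining 14 did not pass. That is 63.2% called, where 26.0% of all genes tested were called, with 14.5% higher and 11.5% lower. The genes were chosen with earlier results of these data known, so their larger share is no independent support. At least 2-fold changes were 9 rises and 2 falls among the 38, beside 6.36% and 2.87% of all genes tested (9.24% in either direction). The median log2 fold change was -0.08, beside 0.0 over all genes, and the median size of the change was 0.47, beside 0.22. The libraries of the genotypes did not overlap for 27 of the 38 genes, beside 41.7% of all genes. All 24 called genes were among the 27, and the others were THBS3, FBLN5 and LOXL2. Scaled by library size alone, the matrix genes split into 12 higher and 11 lower, and over all genes 2055 higher and 2438 lower.

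**Figure D1:**
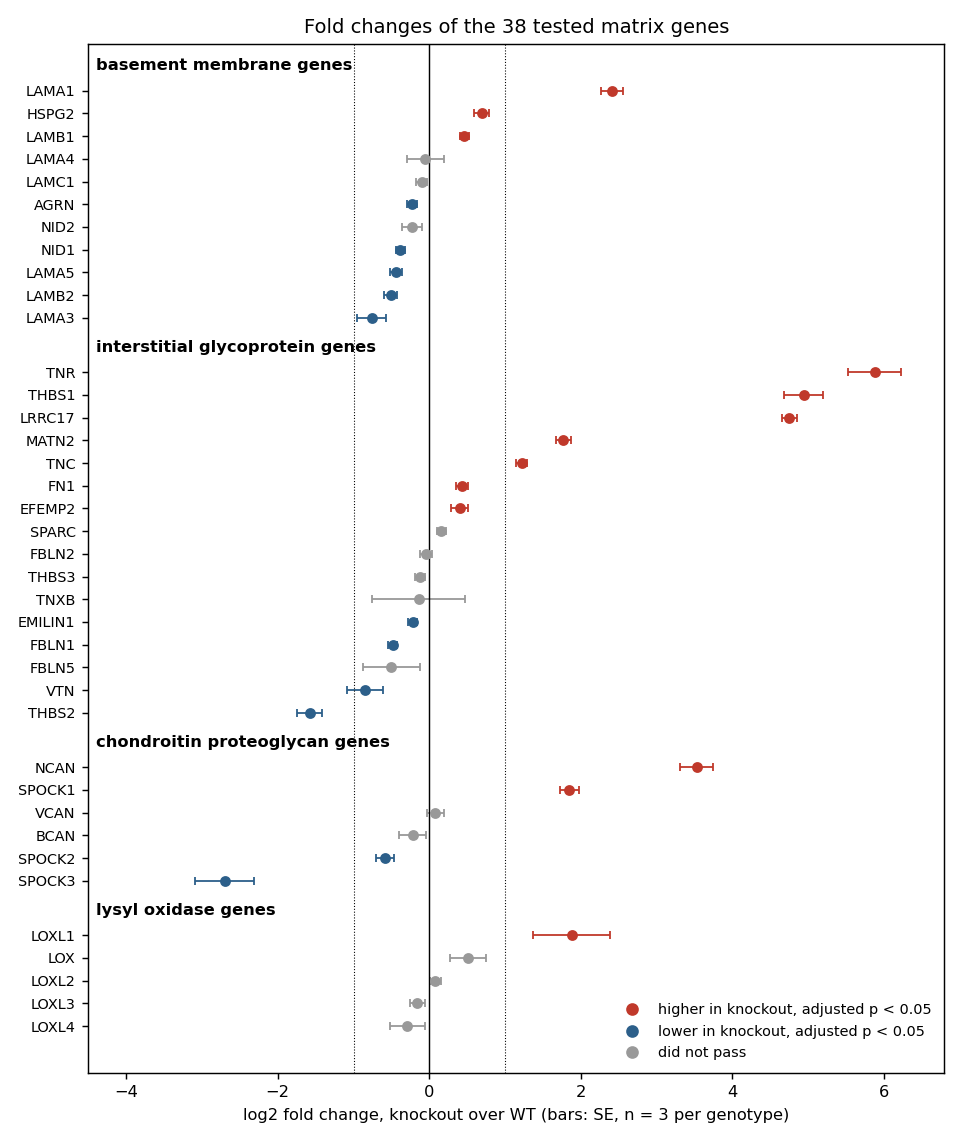
Log2 fold change (knockout over WT, x axis) of each of the 38 tested matrix genes, grouped by role, with SE bars from edgeR's fit (n = 3 per genotype). The values run from -2.70 for SPOCK3 to 5.88 for TNR, and the dotted lines mark a 2-fold change.

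Among the basement membrane genes, the alpha chain gene LAMA1 rose, LAMB1 and the perlecan gene HSPG2 rose by less than 2-fold, and 5 genes fell by less than 2-fold. Of the 13 genes, 11 were tested: 3 rose, 5 fell and 3 did not pass (72.7% called, beside 26.0% of all genes tested). LAMA1, the alpha chain of laminin-111, the first laminin of the embryo, had 15.2, 12.9 and 16.5 CPM in the knockout libraries, against 2.86, 2.59 and 2.91 CPM in the WT libraries. The knockout libraries were all several times above the WT libraries, and LAMA1, on chromosome 18 from 6941742 to 7117797 in GRCh38.p14, rose by 2.41 ± 0.15 (edgeR adjusted p = 1.20e-06). LAMB1, the beta chain that partners with LAMA1, was already abundant, with 503, 537 and 506 CPM in knockout and 372, 390 and 365 CPM in WT libraries (0.46 ± 0.06, edgeR adjusted p = 0.000192). HSPG2, whose product perlecan carries heparan sulfate chains and binds growth factors, had 65.1, 56.6 and 60.3 CPM in knockout and 38.4, 41.8 and 32.5 CPM in WT libraries (0.69 ± 0.10, edgeR adjusted p = 0.000597). In both genes the lowest knockout library lay above the highest WT library.

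The falls included the most abundant alpha chain gene of the line. LAMA5, an alpha chain widespread in adult basement membranes, had 217, 181 and 202 CPM in knockout libraries and 276, 284 and 252 CPM in WT libraries (-0.44 ± 0.08, edgeR adjusted p = 0.00216). LAMB2, the beta chain enriched at synapses and in the kidney filter, averaged 62.1 ± 4.83 CPM in knockout and 88.2 ± 8.51 CPM in WT libraries (SD, n = 3 each; -0.51 ± 0.09, edgeR adjusted p = 0.00203). Nidogen-1, which bridges laminin and collagen IV, is encoded by NID1, which had 385, 397 and 400 CPM in knockout and 536, 515 and 488 CPM in WT libraries (-0.38 ± 0.06, edgeR adjusted p = 0.000733). For these 3 genes every knockout library was below every WT library, although none of the falls reached 2-fold.

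LAMA3, the alpha chain of laminin-332 of epithelia, had 12.9, 12.1 and 10.7 CPM in knockout libraries and spread over 25.8, 20.5 and 14.3 CPM in WT libraries (-0.76 ± 0.19, edgeR adjusted p = 0.0129). Agrin, the proteoglycan that clusters acetylcholine receptors at the neuromuscular junction, is encoded by AGRN, which fell by -0.23 ± 0.07 (edgeR adjusted p = 0.0382). Both calls depended on single libraries. By edgeR, LAMA3 did not pass without knockout replicate 3 (adjusted p = 0.0596) or WT replicate 1 (0.0521), within a range of 0.00081 to 0.758 over all alternatives, other tools included, and AGRN did not pass without knockout replicate 2 or 3 or WT replicate 1 or 2 (0.0740 to 0.158, within 0.0176 to 0.299) or with counts summed from the transcript files (0.0515). With counts corrected for transcript length, the values of LAMA3 and LAMB2 were 0.17 and 0.13 and neither passed, nor did AGRN (-0.14, edgeR adjusted p = 0.299). The gamma chain gene LAMC1, with 394 ± 20.0 CPM in knockout and 423 ± 32.1 CPM in WT libraries (SD, n = 3 each), NID2 and LAMA4 did not pass, with fold changes of -0.23 to -0.05.

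**Figure D2:**
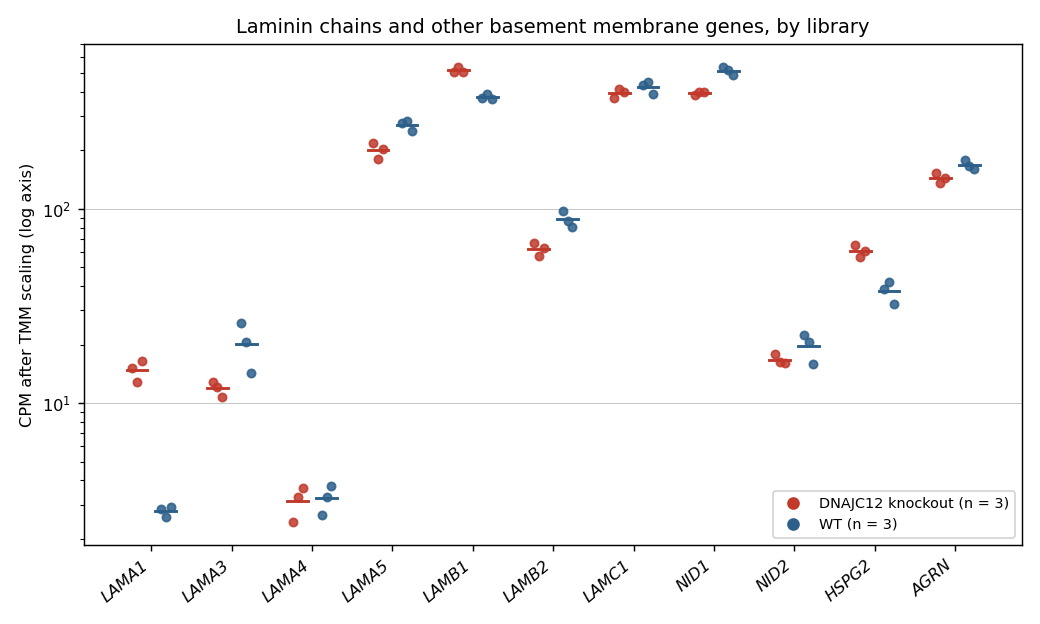
CPM after TMM scaling (log axis) of the 11 tested basement membrane genes, knockout libraries left and WT libraries right for each gene, with points for libraries and a bar for the mean (n = 3). LAMA1 stands apart with 12.9 to 16.5 CPM in knockout and 2.59 to 2.91 CPM in WT libraries, while the other genes differ by less than 2-fold.

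Set per length, in TPM (a level scaled by transcript length and library) summed over a gene's transcripts, LAMA5 remained the main alpha chain. It made up 82.5% ± 2.94 of the alpha chain TPM in knockout and 91.1% ± 1.45 in WT libraries (SD, n = 3 each). LAMA3 came next, with 10.3% ± 3.39 in knockout and 6.33% ± 1.94 in WT libraries, and its shares overlapped between genotypes. In TPM it had 4.64 ± 1.59 in knockout and 4.32 ± 1.53 in WT libraries, unlike its fall in CPM. LAMA1 made up 5.29% ± 0.108 in knockout libraries and 0.977% ± 0.612 in WT libraries, where replicate 3 was high at 1.68% and the others had 0.545% and 0.708%. The alpha chains summed to 44.6 ± 2.37 TPM in knockout and 67.7 ± 4.57 TPM in WT libraries, the 2 beta chains to 153 ± 5.38 TPM in knockout and 130 ± 0.732 TPM in WT libraries, and the gamma chains to 75.2 ± 4.84 TPM in knockout and 79.0 ± 7.04 TPM in WT libraries. The beta sum is understated, since the transcripts used for TPM held 78.7% of the counts of LAMB1. These sums also include short forms annotated as retained introns. The long coding transcript LAMA5-201 held 61.6% ± 4.25 of LAMA5 TPM in knockout and 51.6% ± 1.58 in WT libraries. LAMB2, which fell in CPM, had 39.4 ± 6.46 TPM in knockout and 37.7 ± 2.58 TPM in WT libraries (SD, n = 3 each). LAMC1 made up 99.8% of the gamma chain TPM in knockout and 99.9% in WT libraries. The gamma chain gene LAMC3 and the muscle alpha chain gene LAMA2 had 21 and 7 counts over the 3 knockout libraries, against 15 and 20 counts over the WT libraries.

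Among the interstitial glycoproteins, 7 of 16 tested genes rose, 4 fell and 5 did not pass (68.8% called, beside 26.0% of all genes tested). The rises comprised a tenascin pair, thrombospondin-1, the fibronectin gene, matrilin-2, fibulin-4 and the leucine-rich repeat protein LRRC17, and the falls thrombospondin-2, vitronectin, fibulin-1 and EMILIN-1. LRRC17 encodes a secreted leucine-rich repeat protein known as an inhibitor of osteoclast formation. It had 127, 129 and 125 CPM in the knockout libraries, against 5.23, 4.21 and 4.65 CPM in the WT libraries, a rise of 4.75 ± 0.10 (edgeR adjusted p = 1.18e-09). In TPM it ranked 6 of 43 in knockout and 27 of 43 in WT cells, with 92.9 ± 1.68 TPM in knockout and 3.60 ± 0.324 TPM in WT libraries (SD, n = 3 each). LRRC17, on chromosome 7 from 102913000 to 102945111, shares exon sequence with FBXL13 on the other strand. FBXL13 averaged 1.95 CPM in knockout and 0.948 CPM in WT libraries and did not pass (edgeR adjusted p = 0.0698), so its level was far below that of LRRC17 in knockout cells.

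Thrombospondins are large multimeric glycoproteins, and the trimeric members, encoded by THBS1 and THBS2, are known as inhibitors of blood vessel growth. These 2 genes moved apart. THBS1, on chromosome 15 from 39581079 to 39599466, had 41.8, 36.4 and 41.3 CPM in the knockout libraries, against 0.484, 1.78 and 1.64 CPM in the WT libraries, and rose by 4.94 ± 0.26 (edgeR adjusted p = 3.08e-07). THBS2, its close relative on chromosome 6 from 169215785 to 169253846, had 13.4, 20.8 and 18.3 CPM in knockout and 42.0, 54.5 and 60.6 CPM in WT libraries, and fell by -1.58 ± 0.17 (edgeR adjusted p = 5.78e-05). The genotypes therefore did not overlap for either gene and lay in opposite order. THBS1 exceeded the filter's level in 3 knockout but only 2 WT libraries, so it entered the test through the genotype where it was high. THBS3, the abundant pentameric member, did not pass, with 93.4 ± 4.82 CPM in knockout and 102 ± 2.57 CPM in WT libraries (SD, n = 3 each; -0.12 ± 0.07). The 3 genes together summed to 151 ± 4.60 CPM in knockout and 155 ± 12.7 CPM in WT libraries. With gene counts summed from the transcript files, which held 62.5% of the counts of THBS2, its value was -1.97 and did not pass (edgeR adjusted p = 0.148). Nor did THBS2 pass with counts corrected for transcript length (edgeR adjusted p = 0.169, within a range over all alternatives of 5.65e-20 to 0.169).

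The 250 bases before the start sites of these paralogs are shown because the genes moved in opposite directions. The sequences are RefSeq's for GRCh38.p14, 5′ to 3′ on the gene's strand, THBS1 from chr15:39580829-39581078 (+ strand) and THBS2 from chr6:169253847-169254096 (- strand). Capitals mark matches on either strand to GGAATG (the core bound by TEAD factors), GGGCGG (SP1) or TATAAA (the TATA box).
THBS1: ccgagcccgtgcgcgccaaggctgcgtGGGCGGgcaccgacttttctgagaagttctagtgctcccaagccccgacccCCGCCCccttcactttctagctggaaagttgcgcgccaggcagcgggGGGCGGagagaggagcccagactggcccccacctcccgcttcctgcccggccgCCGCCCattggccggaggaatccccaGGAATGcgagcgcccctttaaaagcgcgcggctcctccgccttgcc
THBS2: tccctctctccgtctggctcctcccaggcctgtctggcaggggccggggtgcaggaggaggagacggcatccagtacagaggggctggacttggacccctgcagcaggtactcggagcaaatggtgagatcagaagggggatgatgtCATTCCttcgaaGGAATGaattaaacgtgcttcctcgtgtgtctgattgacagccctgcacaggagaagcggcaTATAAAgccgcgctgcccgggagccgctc
The window of THBS1 held 4 matches to GGGCGG and 1 to GGAATG, which began 46 bases before the start. The window of THBS2 held a TATAAA match that began 29 bases before the start and a pair of GGAATG matches in opposite orientation that began 103 and 91 bases before it, and no GGGCGG. Of all 27305 promoter windows of this length, 11.9% held GGAATG, 42.3% GGGCGG and 11.1% TATAAA. Windows were found for 33 of the 43 genes, of which 6 held GGAATG, 21 GGGCGG and 2 TATAAA. The AP-1 motif TGANTCA was found in 2 of the 33 and in 6.60% of all windows, and CACCTG (an E-box of ZEB and SNAI factors) in 4 of the 33 and in 17.5% of all windows. Where RefSeq lists several start sites, the first in the table was used. The window of LRRC17, also among the largest changes, held none of the 5 motifs. These matches describe letters, not binding sites.

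TNC and TNR rose. Tenascins are hexameric or trimeric proteins that modulate adhesion, tenascin-C in development, wounds and tumours and tenascin-R in the perineuronal matrix. TNR, on chromosome 1 from 175315194 to 175743595, had 14.2, 21.7 and 18.2 CPM in the knockout libraries and 0.581, 0.203 and 0.102 CPM in the WT libraries, from 1121 counts in knockout and 18 in WT, and rose by 5.88 ± 0.35 (edgeR adjusted p = 6.58e-07). Its WT level rested on few counts, and without WT replicate 1, which held 12 of the 18, the value was 6.83. TNR exceeded the filter's level in 3 knockout libraries but only 1 WT library. It thus entered the test through the genotype where it was high. TNC, on chromosome 9 from 115019575 to 115118157, had 188, 202 and 204 CPM in knockout and 85.2, 86.8 and 82.4 CPM in WT libraries (1.22 ± 0.07, edgeR adjusted p = 3.40e-07). TNC was thus the more abundant of the pair in both genotypes in CPM and in TPM, with 26.8 ± 1.12 TPM for TNC and 1.75 ± 0.379 TPM for TNR in knockout and 9.74 ± 1.25 TPM for TNC and 0.0301 ± 0.026 TPM for TNR in WT libraries (SD, n = 3 each), although the transcripts used held only 58.6% of its counts. TNXB, the tenascin of connective tissue, which shares sequence with a nearby pseudogene, had 31 counts in knockout and 33 in WT libraries and did not pass (-0.14 ± 0.61). With counts corrected for transcript length it passed as lower (-3.50, edgeR adjusted p = 0.0165; range 0.0165 to 0.945), with 0.0505 ± 0.0338 TPM in knockout and 0.682 ± 0.597 TPM in WT libraries (SD, n = 3 each).

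Fibronectin, encoded by FN1, is the main integrin ligand of provisional matrix. FN1 had 431, 503 and 472 CPM in knockout and 355, 370 and 319 CPM in WT libraries, a rise of 0.43 ± 0.08 (edgeR adjusted p = 0.00199). It did not pass with counts corrected for transcript length (0.29, edgeR adjusted p = 0.0578; range over all alternatives 7.57e-06 to 0.0578). Vitronectin, the adhesive protein of plasma that binds the integrin alphaV beta3, is encoded by VTN, which had 4.74, 3.56 and 6.34 CPM in knockout and 8.13, 6.95 and 11.3 CPM in WT libraries (-0.85 ± 0.24, edgeR adjusted p = 0.0254). Each knockout library of VTN was below each WT library, but the call was lost without knockout replicate 2 (edgeR adjusted p = 0.0558) or WT replicate 3 (0.119), within a range of 0.00196 to 0.119.

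The fibulins, calcium-binding glycoproteins of elastic fibres and basement membranes, did not move together. FBLN1, the most abundant fibulin here, had 293, 286 and 292 CPM in knockout and 401, 395 and 420 CPM in WT libraries, a fall of -0.48 ± 0.06 (edgeR adjusted p = 0.000104). EFEMP2, which encodes fibulin-4, an organiser of elastin cross-linking, had 145, 101 and 122 CPM in knockout and 92.2, 90.0 and 96.9 CPM in WT libraries (0.40 ± 0.11, edgeR adjusted p = 0.0259). The knockout libraries of EFEMP2 were uneven, replicate 2 lying close to the WT range, and the gene did not pass without knockout replicate 3 or WT replicate 1, 2 or 3 (edgeR adjusted p = 0.0652 to 0.103, within 0.00079 to 0.103), when scaled by library size alone (0.0501), or with counts corrected for transcript length (0.0644). FBLN2 and FBLN5 did not pass (-0.04 ± 0.08 and -0.50 ± 0.38). EFEMP1, the fibulin-3 gene, was under the filter with 0, 1 and 2 counts in the knockout libraries and 11, 9 and 10 counts in the WT libraries, a ratio of 0.0932 with an exact 95% interval for counting error of 0.0182 to 0.300. When tested with no filter it passed (edgeR adjusted p = 0.0251). By TPM, FBLN1 made up 57.6% ± 3.0 of the fibulins in knockout and 70.4% ± 0.434 in WT libraries, and EFEMP2 36.0% ± 3.56 in knockout and 23.8% ± 1.19 in WT libraries (SD, n = 3 each).

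The remaining glycoproteins held the most abundant gene of all 43. SPARC, a collagen-binding protein that loosens adhesion, had 707, 629 and 687 CPM in knockout and 631, 604 and 574 CPM in WT libraries, with 544 ± 37.0 TPM in knockout and 485 ± 54.0 TPM in WT libraries (SD, n = 3 each). Its knockout and WT libraries overlapped and it did not pass (0.16 ± 0.06, edgeR adjusted p = 0.0968), although it did without knockout replicate 2 (0.21, adjusted p = 0.0222; range 0.0222 to 0.302). MATN2, a filament-forming matrilin, on chromosome 8 from 97869064 to 98036724, had 69.6, 80.5 and 72.7 CPM in knockout and 23.0, 22.6 and 19.7 CPM in WT libraries (1.77 ± 0.10, edgeR adjusted p = 3.53e-07). EMILIN1, an elastic fibre glycoprotein that restrains TGF-beta processing, had 309, 305 and 318 CPM in knockout and 357, 343 and 384 CPM in WT libraries (-0.22 ± 0.06, edgeR adjusted p = 0.0248). EMILIN1 did not pass without knockout replicate 3 or WT replicate 1 or 3 (edgeR adjusted p = 0.0669 to 0.0800, within 0.00673 to 0.0800), nor with counts corrected for transcript length (0.0652). In the transcripts used for TPM, POSTN, the periostin gene, had 2 estimated reads in knockout replicate 1 and 0 in the other 5 libraries, where 0 reads allow up to 3.

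**Figure D3:**
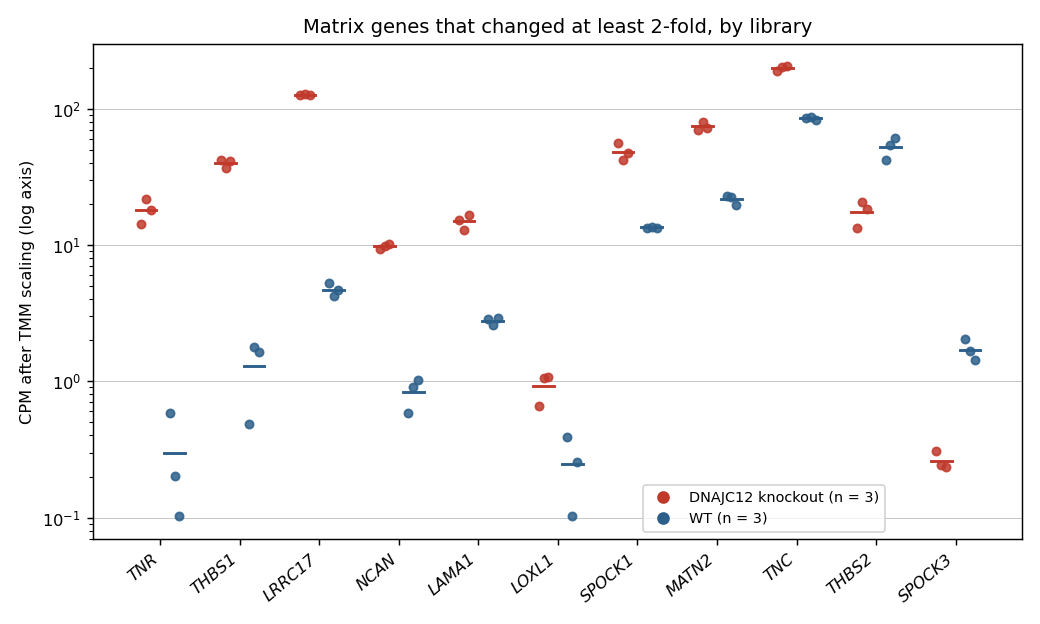
CPM after TMM scaling (log axis) of the 11 matrix genes that passed the test with at least a 2-fold change, knockout libraries left and WT libraries right for each gene, points for libraries and a bar for the mean (n = 3). For 9 genes the knockout libraries lie above the WT libraries and for THBS2 and SPOCK3 below them, with no overlap for any of the 11.

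Among the chondroitin proteoglycans, a brain lectican and a testican rose while other members of the same families did not pass or fell. The 6 genes tested split evenly, with 2 rises, 2 falls and 2 that did not pass (66.7% called, beside 26.0% of all genes tested). NCAN encodes neurocan, a lectican of brain matrix that inhibits neurite outgrowth in culture. On chromosome 19 from 19211958 to 19252233, it had 9.27, 9.87 and 10.1 CPM in the knockout libraries and 0.581, 0.914 and 1.02 CPM in the WT libraries, and rose by 3.53 ± 0.22 (edgeR adjusted p = 1.16e-06). With counts corrected for transcript length the value was 2.24 and just missed the threshold (edgeR adjusted p = 0.0508; range 1.29e-30 to 0.0508). Versican, encoded by VCAN, stayed the main lectican. VCAN had 172, 191 and 178 CPM in knockout and 183, 188 and 138 CPM in WT libraries and did not pass (0.08 ± 0.11, edgeR adjusted p = 0.627), nor did the brevican gene BCAN (-0.22 ± 0.18). By TPM, VCAN made up 85.7% ± 1.23 of the lecticans in knockout and 89.5% ± 3.43 in WT libraries, and NCAN 5.79% ± 0.334 in knockout and 1.37% ± 1.69 in WT libraries (SD, n = 3 each). The WT shares of NCAN were 0.306%, 0.488% and 3.32%, so their mean rested on WT replicate 3 and was 0.397% without it. In the transcripts used for TPM, the aggrecan gene ACAN had 0 reads in each of the 6 libraries, which allows up to 3 reads a library. Reads of transcripts not joined to genes were not counted.

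The testicans are secreted proteoglycans related to SPARC, with a domain resembling thyropin-type protease inhibitors. SPOCK1, on chromosome 5 from 136975298 to 137499326, had 55.8, 42.2 and 47.4 CPM in knockout and 13.4, 13.6 and 13.3 CPM in WT libraries (1.85 ± 0.12, edgeR adjusted p = 1.07e-06). SPOCK2 had 15.2, 12.1 and 14.2 CPM in knockout and 21.7, 19.2 and 21.1 CPM in WT libraries (-0.58 ± 0.12, edgeR adjusted p = 0.00391). SPOCK3, on chromosome 4 from 166733384 to 167234945, had 0.306, 0.241 and 0.233 CPM in knockout and 2.03, 1.67 and 1.43 CPM in WT libraries, from 16 counts in knockout and 103 in WT (-2.70 ± 0.39, edgeR adjusted p = 0.000488). It exceeded the filter's level only in the 3 WT libraries, so it entered the test through the genotype where it was high and its call is no independent support. The leading testican by TPM was SPOCK1 in knockout cells and SPOCK2 in WT cells. SPOCK1 made up 74.0% ± 3.18 of testican TPM in knockout and 30.5% ± 2.62 in WT libraries, and SPOCK2 25.0% ± 3.43 in knockout and 59.5% ± 0.961 in WT libraries (SD, n = 3 each).

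**Figure D4:**
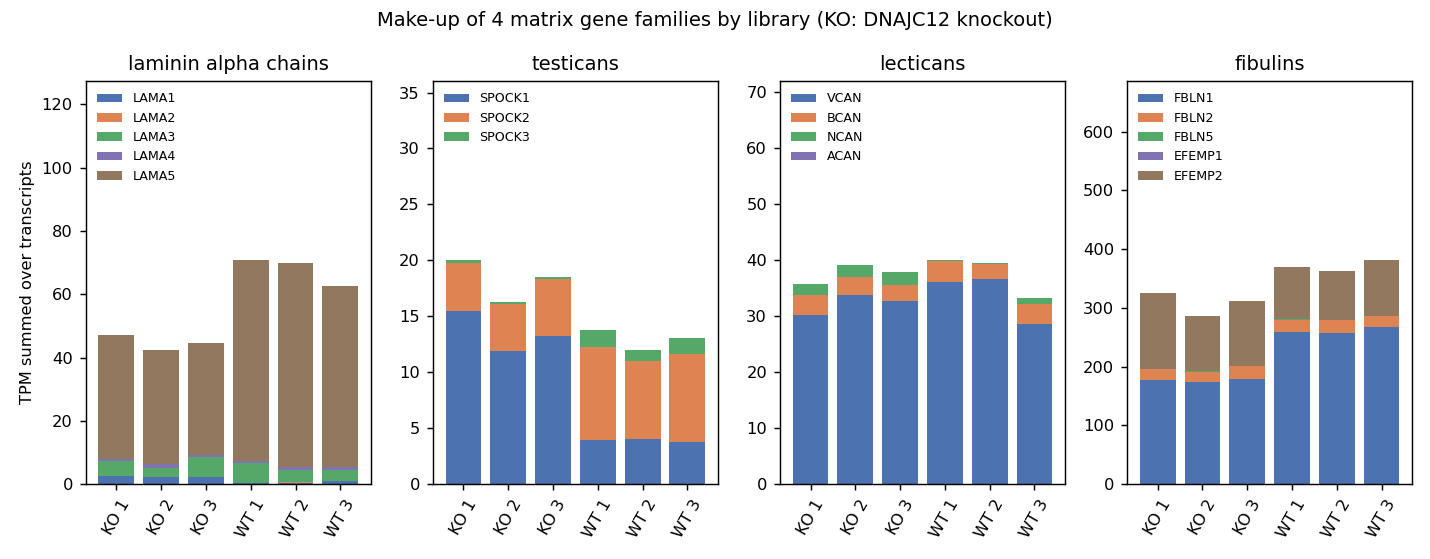
TPM summed over transcripts for the laminin alpha chains, testicans, lecticans and fibulins in each library (KO, knockout, left of WT), stacked by gene. The testican bars are led by SPOCK1 in knockout libraries (74.0% on average) and by SPOCK2 in WT libraries (59.5%), while LAMA5, VCAN and FBLN1 lead the other families in both genotypes.

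The lysyl oxidases were called about as often as genes in general, at 20.0% of only 5 tested, beside 26.0% of all genes. By edgeR 1 rose and 0 fell, with the same counts at an unadjusted p under 0.05 and by DESeq2 and limma-voom. LOXL1, the elastin cross-linking enzyme, was scarce, with 0.662, 1.06 and 1.07 CPM in knockout and 0.387, 0.102 and 0.256 CPM in WT libraries, from 58 counts in knockout and 15 in WT (1.88 ± 0.51, edgeR adjusted p = 0.0203). It exceeded the filter's level only in the 3 knockout libraries, so this call, too, came through the genotype where the gene was high. LOXL1 lies on chromosome 15 from 73926462 to 73952136. Its call did not hold without knockout replicate 2 or 3 or WT replicate 2 or 3 (edgeR adjusted p = 0.0573 to 0.0871, within 0.0206 to 0.569), and its value was 0.85 with counts corrected for transcript length. LOXL2, the most abundant of these enzymes, had 76.3 ± 1.86 CPM in knockout and 72.4 ± 1.70 CPM in WT libraries (SD, n = 3 each; 0.08 ± 0.07, 95% interval -0.06 to 0.21). LOX itself had 3.62, 5.63 and 4.43 CPM in knockout and 3.10, 3.91 and 2.61 CPM in WT libraries and did not pass (0.51 ± 0.24, edgeR adjusted p = 0.159). LOXL4 spread over 14.9, 6.89 and 9.05 CPM in knockout libraries, against 12.9, 12.1 and 12.6 CPM in WT libraries. Without knockout replicate 1, the high library, LOXL4 passed as lower (-0.65, edgeR adjusted p = 0.00731; range 0.00731 to 0.830). LOXL3 did not pass (-0.16 ± 0.10).

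The transcript files were used to see which forms carried the reads. Of 45864 transcripts tested by edgeR, 3.18% passed, and of 123 tested transcripts of the matrix genes 10 were higher and 4 lower in the knockout. Salmon's estimates carry an assignment error that this test does not include. The higher ones included both main transcripts of LRRC17 (5.01 ± 0.31 for LRRC17-202 and 4.14 ± 0.27 for LRRC17-201) and TNC-211, a coding form shorter than TNC-202 that held 44.5% ± 2.38 of the assigned TNC TPM in knockout and 32.8% ± 3.40 in WT libraries (SD, n = 3 each; 1.98 ± 0.08, edgeR adjusted p = 0.000705). TNC-202, the longest TNC transcript with reads, rose by 1.07 ± 0.12 (edgeR adjusted p = 0.0130). In FBLN1 the transcript of isoform C, FBLN1-201, fell (-0.61 ± 0.05, edgeR adjusted p = 0.00415), while that of isoform D, FBLN1-202, had a value of -0.09 ± 0.07 and did not pass. Isoform C made up 69.6%, 72.6% and 71.8% of FBLN1 TPM in knockout libraries, against 75.9%, 77.6% and 76.7% in WT libraries, so that the genotypes did not overlap. Among 119 tested transcripts of matrix genes with more than 1 transcript, 31 had shares that did not overlap, beside 13.7% of all such transcripts. The difference between the isoforms was not tested.

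Shares of TPM among transcripts are also described for other genes, and their differences between genotypes were not tested. VCAN-203, the V1 form, which lacks 1 of the chondroitin sulfate attachment regions, made up 35.5% ± 2.89 of VCAN TPM in knockout and 41.8% ± 1.56 in WT libraries, and VCAN-201, the full-length V0 form, 28.2% ± 0.467 in knockout and 19.7% ± 4.45 in WT libraries (SD, n = 3 each). Neither transcript passed (edgeR adjusted p = 0.404 and 0.500). VCAN-206, a form of 810 bases annotated as a retained intron, made up 24.9% ± 2.23 in knockout and 34.2% ± 2.45 in WT libraries. The long LAMA3 transcript of the alpha3B chain, LAMA3-202, had 72.4, 35.7 and 61.2 estimated reads in knockout and 308, 257 and 134 in WT libraries (-2.08 ± 0.43, edgeR adjusted p = 0.0689). The full-length LAMB2-201 fell (-0.60 ± 0.07, edgeR adjusted p = 0.0105) and made up 26.7% ± 4.32 of LAMB2 TPM in knockout and 43.3% ± 3.75 in WT libraries, the rest lying in other forms, several of them annotated as retained introns. Short forms weigh more in TPM than in reads, and by reads LAMB2-201 held most of the gene in both genotypes. It had 958, 931 and 981 estimated reads of 1312, 1187 and 1339 LAMB2 counts in knockout libraries. In WT libraries it had 1490, 1390 and 1310 of 2011, 1710 and 1575. For FN1 the shares were too uneven to compare, with FN1-203 between 28.5% and 38.8% in knockout and between 6.33% and 38.9% in WT libraries.

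**Figure D5:**
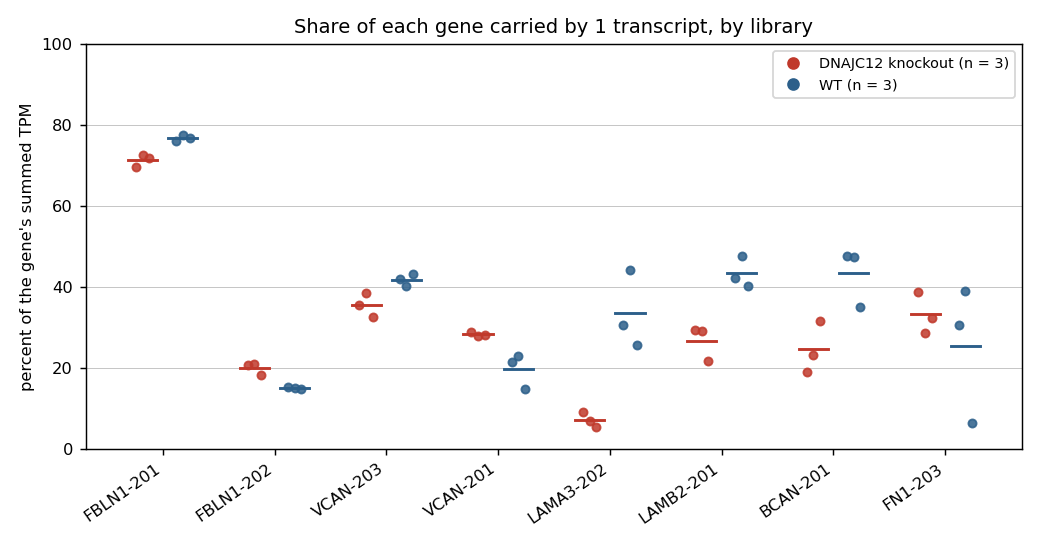
Percent of a gene's summed TPM carried by each of 8 transcripts (y axis), knockout libraries left and WT libraries right, points for libraries and a bar for the mean (n = 3). The 8 were chosen with their values known: 7 have shares that do not overlap between genotypes, and the shares of FN1-203 spread from 6.33% to 38.9% in WT libraries.

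Genes that work with these matrix proteins also changed in both directions, and each list is set beside the 26.0% of all genes tested that were called. These lists, too, were chosen with earlier results of these data known, so a larger share is no independent support. Other basement membrane genes numbered 12 tested, with 5 rises, 4 falls and 3 that did not pass (75.0% called). The collagen IV genes COL4A2 (92.1 ± 1.45 CPM in knockout, 215 ± 1.21 CPM in WT; SD, n = 3 each; -1.22 ± 0.06) and COL4A1 (-1.31 ± 0.07) fell, and SMOC2, a SPARC-related calcium-binding protein, rose (3.45 ± 0.36). Of 15 further relatives of the glycoproteins and proteoglycans 5 rose, 5 fell and 5 did not pass (66.7% called). The SPARC paralog SPARCL1 (9.18 ± 0.606 CPM in knockout, 50.1 ± 2.29 CPM in WT; SD, n = 3 each; -2.45 ± 0.10) and matrilin-3, MATN3 (-1.32 ± 0.11), fell, while RELN, which guides migrating neurons, rose (2.58 ± 0.14). Of 26 receptors 6 rose, 9 fell and 11 did not pass (57.7% called), with rises of the syndecan gene SDC2 (1.79 ± 0.11) and the vitronectin receptor subunit ITGB3 (1.99 ± 0.13) and a fall of SDC1 (-0.88 ± 0.06). Of 14 enzymes that cleave proteoglycans and tenascins 9 rose, 3 fell and 2 did not pass (85.7% called). The versican- and aggrecan-cleaving proteases ADAMTS5 (3.44 ± 0.11), ADAMTS1 (2.09 ± 0.13) and ADAMTS9 (426 ± 48.3 CPM in knockout, 218 ± 10.5 CPM in WT; SD, n = 3 each; 0.97 ± 0.08) were the 3 with the smallest p-values. Of 19 enzymes of chondroitin sulfate synthesis 2 rose, 4 fell and 13 did not pass, and their 31.6% called was near the share of all genes. CHST15 (1.12 ± 0.14) and B4GALT7 (0.67 ± 0.11) rose and CHPF fell (-0.56 ± 0.09). The largest adjusted p among these named genes, by edgeR, was 0.00092, for B4GALT7.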

How the data were processed

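RNA from 3 knockout and 3 WT libraries was depleted of ribosomal RNA and made into stranded libraries, per the labels' protocols. The submitters' processing notes name cutadapt 3.5, Salmon 1.10.0, DESeq2 1.42.1 and GRCh38.p14, with no role or order. The gene table deposited by the authors holds whole-number counts, not normalized. Its lowest row total was 10 counts, and 403 repeated rows were removed. The transcript files deposited by the authors hold estimated counts (rounded for tests) and TPM, per the file headers, and effective transcript lengths. A total of 201667 of 251955 transcripts, with 94.2% to 94.6% of the reads, were joined to genes through GENCODE release 29. Positions and promoters are from RefSeq.

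Counts were filtered with filterByExpr, scaled by TMM and fitted with edgeR 4.0.16 (R 4.3.3) on genotype, with limma 3.58.1 and DESeq2 1.42.0 as alternatives. Each SE was obtained by dividing the size of the log2 change by the root of its F value. Fits were tested on simulated data in which 67, 67 and 66 of 16403 genes changed by 1.5-, 2- and 4-fold, far fewer than were called here. Of these, 50.7%, 73.1% and 93.9% were called, and 7.64% of calls were false. A gene that did not pass may thus still have changed by a small amount. Replicates of a genotype differed by more than counting noise (chi-square per gene 4.59 to 28.5). Intervals and floors of 3 counts cover counting error only. Exons of 24 of the 43 genes overlap another gene, and no strand setting is given in the sources used here. No batch is labelled.

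The genes and lists were chosen with earlier results of these data known. Values in every library are printed for called genes with at least a 2-fold change and for several others, and of each context list the 3 genes with the smallest p are named.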

Additional observations from a re-analysis of the deposited data

How the results depend on the processing

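Of the 24 called genes, 14 kept their call in all 15 alternatives, namely LAMA1, LAMB1, HSPG2, LAMA5, NID1, TNC, TNR, THBS1, LRRC17, MATN2, FBLN1 and the 3 testicans. Among these, SPOCK3 met the filter through the WT libraries and TNR and THBS1 through the knockout libraries, where each was high. Their kept calls are no independent support. With single libraries left out, the count of matrix genes higher was 11 to 13 and lower 8 to 13, and over all genes 1758 to 2622 higher and 1208 to 2150 lower. By role these ranges were 3 to 5 lower for basement membrane genes, 2 to 5 lower for interstitial glycoproteins, and 0 to 1 higher and 0 to 1 lower for lysyl oxidases. With counts corrected for transcript length, 9 matrix genes were higher and 8 lower, and over all genes 1221 were lower, with 3 basement membrane genes lower, 1 proteoglycan higher and 0 lysyl oxidases higher, and signs turned for LAMA3 (0.17) and LAMB2 (0.13). TNXB passed there (-3.50), as did NID2 (-0.58, edgeR adjusted p = 0.0183, range 0.0183 to 0.608). EMILIN1 (edgeR adjusted p = 0.0652), EFEMP2 (0.0644), AGRN (0.299), THBS2 (0.169), FN1 (0.0578), NCAN (0.0508) and LOXL1 (0.569) did not. With summed transcript counts, AGRN (edgeR adjusted p = 0.0515) and THBS2 (0.148) did not pass. At a mean of at least 1 CPM LOXL1 was not tested, leaving 0 lysyl oxidases higher. Signs of genes that did not pass also turned: FBLN5 with summed transcript counts (0.07), LAMA4 without knockout replicate 1 (0.10) or WT replicate 3 (0.06; -0.17 without knockout replicate 3), TNXB without knockout replicate 2 (0.35) or WT replicate 3 (0.16; -0.46 without knockout replicate 1), and VCAN without WT replicate 3 (-0.05). The cause of these shifts was not tested. With the replicate number as a block 13 matrix genes were higher and 11 lower, and over all genes 2541 higher and 2024 lower. Same-numbered libraries share only a number, their deviations correlating at 0.154, -0.0517 and -0.136, and not every library correlated best with its own number. Depth limits LAMA2, LAMC3, EFEMP1, ACAN and POSTN.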
